A study of Mus musculus with 4 samples.

Results

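Prefoldin is a co-chaperone of the cytosol that catches newly made, unfolded actin and tubulin and hands them to the chaperonin CCT, which folds them. Its subunits are of alpha type, encoded by Vbp1 and Pfdn5, or of beta type, encoded by Pfdn1, Pfdn2, Pfdn4 and Pfdn6. Uri1 encodes a prefoldin-like protein of alpha type that shares Pfdn2 and Pfdn6 with canonical prefoldin and sits in a larger assembly with the R2TP co-chaperone. The mRNAs of these 7 genes were followed through RNA immunoprecipitation (RIP) of Lin28b. This protein is known for holding back the processing of let-7 microRNA precursors, and it also binds numerous mRNAs. The family was taken up because of the ratio of Vbp1 with the wild-type protein, so those ratios chose it and are given here as a description without a test. The genes were found by symbol, and all 7 stood among the 13478 genes listed in both gene tables.

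By their labels the cells were mouse pancreatic cancer-associated fibroblasts (15376CAFs), and all of them overexpressed a Flag-tagged Lin28b. The groups were the Lin28b-WT immunoprecipitate (wild-type IP) with its wild-type input, and the Lin28b-MU immunoprecipitate (mutant IP) with its mutant input. The mutant protein, described as deficient in RNA binding, was taken here as the control, and the anti-Flag antibody was the same for both. Each of the 4 groups held 1 library, so every ratio below compares single libraries, and no difference has a replicate check.

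Levels are given as FPKM, fragments scaled by transcript length and library size. The headers name no unit, and only the scaling by length was checked from the values. Lin28b RNA stood at 8.99 FPKM in the wild-type IP against 13.8 FPKM in its input, and at 36.7 FPKM in the mutant IP against 30.01 FPKM in its input. Of 13 fibroblast markers, 6 were listed in both tables and 3 (Vim, Fn1 and Sparc) reached 10 FPKM in both inputs. Col1a2, Col3a1, Pdgfrb, Dcn, Lum, Thy1 and Fap were not listed in both, and Col1a1, Acta2 and Pdgfra stood at 0.722, 0.227 and 1.33 FPKM (wild-type input) and at 0.404, 0.524 and 0.860 FPKM (mutant input). Of 5 epithelial markers, 4 reached 10 FPKM in both inputs, with summed levels of 1880 FPKM (wild-type input) and 1371 FPKM (mutant input), against 820 and 708 FPKM for the fibroblast markers. Most of the fibroblast markers thus did not bear out the label of the cells, and the epithelial markers stood higher in sum. The part of this marker pattern in the results below was not tested. Of the leukocyte, endothelial and acinar markers, 1 of 11 was listed in both tables, and it stood below 3 FPKM in each input.

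A single stretch of sequence under a Vbp1 peak could be read. A wild-type peak on the gene's strand (X:75514208-75514416) ran across the gene start, with its summit 25 bases before the RefSeq start. The sequence below is the 89 bases of that peak that precede the RefSeq start, shown because they lie under the peak; capitals mark GGAG, the letters known from the loop of let-7 precursors that Lin28 proteins bind.
Vbp1 start-site peak, X:75514208-75514296, plus strand, RefSeq GRCm38.p6: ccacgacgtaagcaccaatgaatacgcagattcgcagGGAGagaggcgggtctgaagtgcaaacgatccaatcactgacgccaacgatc
GGAG occurred 1 time in this stretch and its reverse complement CTCC 0 times. Of 32851 RefSeq windows of the same length and position, 45.8% held GGAG and 71.6% held GGAG or CTCC, so a match in such a window is common.

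The genes lay on 7 chromosomes (coordinates as deposited, on the build GRCm38 of the submitters' processing notes). Vbp1 (ENSMUSG00000031197) spanned X:75514299-75534942 on the plus strand, Pfdn5 (ENSMUSG00000001289) 15:102326116-102331873 on the plus strand, and Uri1 (ENSMUSG00000030421) 7:37959992-38023551 on the minus strand. Of the beta-type genes, Pfdn1 (ENSMUSG00000024346) spanned 18:36403676-36454524 on the minus strand and Pfdn2 (ENSMUSG00000006412) 1:171345670-171359254 on the plus strand. Pfdn4 (ENSMUSG00000052033) spanned 2:170496428-170519123 on the plus strand and Pfdn6 (ENSMUSG00000024309) 17:33938821-33940343 on the minus strand. Among the 7 genes, Pfdn5 alone overlapped another gene of the tables: 165 bases of its span were shared with Myg1 on the same strand, which had levels of 3.55 FPKM in the wild-type IP against 11.7 FPKM in its input.

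Vbp1 had the highest ratio of the subunit genes in both constructs, far higher with the wild-type protein than with the mutant. Its level was 155 FPKM in the wild-type IP against 14.5 FPKM in its input, and 25.3 FPKM in the mutant IP against 18.3 FPKM in its input. The wild-type IP was thus the high library, and the other 3 lay between 14.5 and 25.3 FPKM. The log2 ratio of IP over input was 3.42 with the wild-type protein and 0.47 with the mutant, a difference of 2.95. Over all 14755 genes of the wild-type table, 98.3% had a lower ratio and Vbp1 ranked 256, and in the mutant table it ranked 2290 of 14427, above 84.1%. Among genes with at least 10 FPKM in either library it ranked 2 of 6733 in the wild-type table and 1255 of 6689 in the mutant table. The wild-type ratio is the value that chose the family, so its rank is a description alone. By level, Vbp1 exceeded 98.4% of all genes in the wild-type IP and 67.1% in its input, and 84.9% in the mutant IP and 71.8% in its input. These places depend on the order of genes within a library and not on the scale of the table.

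Pfdn5, the other alpha-type subunit and also known as a binding partner of the Myc protein, had the lowest ratio of the family in both constructs. It stood at 15.0 FPKM in the wild-type IP against 66.5 FPKM in its input, and at 8.32 FPKM in the mutant IP against 72.5 FPKM in its input. Both inputs were above both IPs. Its log2 ratio was −2.15 with the wild-type protein and −3.12 with the mutant. The pair of alpha-type genes therefore spanned the whole range of the 6 subunits.

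For each beta-type subunit gene the IP levels lay below the input levels. Pfdn1 stood at 15.3 FPKM in the wild-type IP against 41.6 FPKM in its input, and at 14.9 FPKM in the mutant IP against 72.1 FPKM in its input, with log2 ratios of −1.45 and −2.27. Pfdn2 stood at 8.02 FPKM in the wild-type IP against 19.4 FPKM in its input, and at 8.18 FPKM in the mutant IP against 49.1 FPKM in its input, with log2 ratios of −1.28 and −2.58. For both genes the IP levels as deposited were nearly equal between constructs. The inputs differed, by −0.79 for Pfdn1 and −1.34 for Pfdn2 (log2 of wild-type input over mutant input). Each table was normalised apart, so this side-by-side reading of levels carries that limit. Summed over all listed genes, the level was 286718 FPKM in the wild-type IP and 207301 FPKM in the mutant IP. The inputs summed to 321238 and 313359 FPKM. Which library carried the difference between constructs is therefore not settled.

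Pfdn4 stood at 10.3 FPKM in the wild-type IP against 22.6 FPKM in its input, and at 5.05 FPKM in the mutant IP against 27.5 FPKM in its input, with log2 ratios of −1.13 and −2.45. Pfdn6 stood at 26.0 FPKM in the wild-type IP against 57.9 FPKM in its input, and at 14.6 FPKM in the mutant IP against 59.5 FPKM in its input, with log2 ratios of −1.16 and −2.03. For these genes the inputs were close to each other (log2 differences of −0.29 and −0.04), and the IP levels differed more, by 1.03 for Pfdn4 and 0.83 for Pfdn6 (log2 of wild-type IP over mutant IP). By the levels as deposited, then, the same direction of difference between constructs went with different libraries among the beta-type genes. The limit given for Pfdn1 and Pfdn2 holds here too, so which library carried a difference is not settled.

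Uri1 followed neither Vbp1 nor the Pfdn genes. It stood at 17.2 FPKM in the wild-type IP against 11.5 FPKM in its input, and at 13.6 FPKM in the mutant IP against 9.51 FPKM in its input. Both IPs were above both inputs, with log2 ratios of 0.58 and 0.52 that differed between constructs by only 0.06. After the differences of all genes in both tables were centred on their own median, that of Uri1 turned to −0.26, so it carries no direction.

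**Figure D1:**
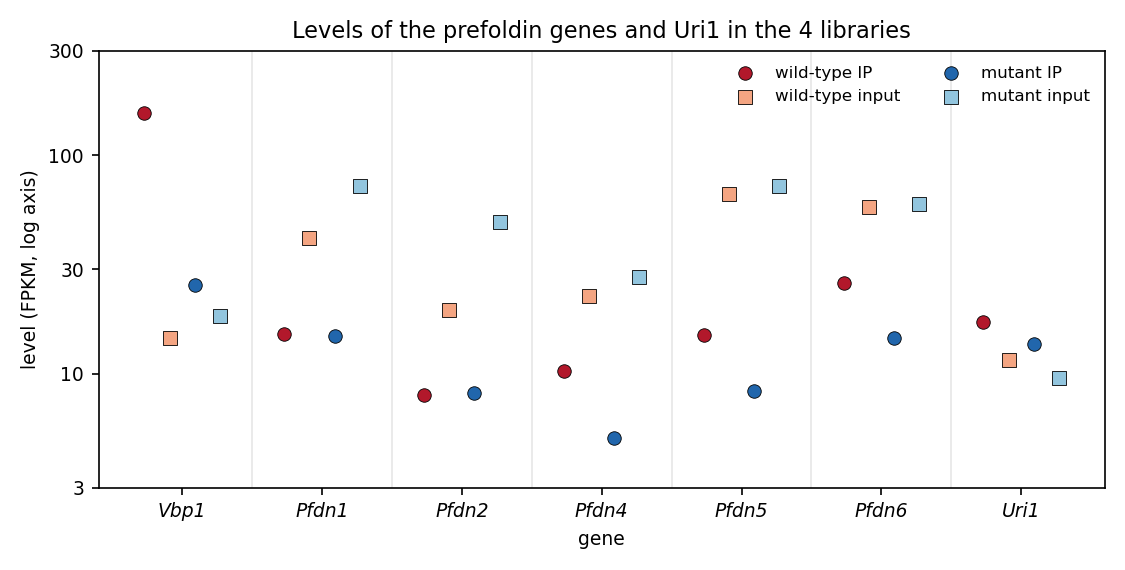
Level of each gene (FPKM, log axis) in the wild-type IP, wild-type input, mutant IP and mutant input, with 1 point per library. Vbp1 stands at 155 in the wild-type IP and at or below 25.3 in the other 3 libraries, whereas the squares of both inputs lie above the circles of both IPs for each of the 5 Pfdn genes.

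A gene was called enriched or lower where IP and input differed by 2-fold or more, upward or downward, and the authors' deposited q-value was under 0.05. Vbp1 was called enriched with the wild-type protein, 1 of 7 members, where 7.40% of all 14755 genes were. The 5 Pfdn genes were called lower, by 2.19-fold for Pfdn4 to 4.44-fold for Pfdn5, where 21.5% of all genes were. Uri1 met neither rule. With the mutant protein 0 of 7 members were enriched, where 5.98% of 14427 genes were, and the same 5 Pfdn genes were lower, by 4.08-fold for Pfdn6 to 8.70-fold for Pfdn5, where 36.0% of genes were. The share called lower also fell with gene span across 5 classes of protein-coding genes. In the shortest class, which held Pfdn5 and Pfdn6, 42.1% were lower with the wild-type protein and 67.7% with the mutant. The shares were 23.4% and 42.3% in the class of Pfdn2, 13.6% and 26.0% in that of Pfdn4, and 8.30% and 15.9% for Pfdn1. Since the family was chosen on the wild-type ratio, nothing is read from the enriched count. In the authors' deposited tables, the largest q-value of a member in the mutant comparison was 6.81e-14, for Vbp1, although its fold was only 1.38; such a q-value compares 2 libraries and not 2 conditions.

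The calls depended on the median of each table, which was −0.29 for the wild-type comparison and −0.61 for the mutant one (log2). After centring on it, 2 of the 5 Pfdn genes (Pfdn1 and Pfdn5) stayed lower with the wild-type protein, and Vbp1 and Uri1 passed the enriched rule with the mutant, at log2 ratios of 1.07 and 1.12. Vbp1 was therefore above the typical gene of the mutant IP as well, by less than in the wild-type IP.

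All 7 members had a higher ratio with the wild-type protein than with the mutant, Uri1 not after centring, where 63.2% of all genes did. The difference reached 1 for Vbp1, Pfdn2 and Pfdn4, where it did so for 26.1% of genes. The 5 Pfdn genes lay between 0.82 and 1.31, with a median of 0.97, against 0.32 over all genes in both tables. The difference also followed gene span: among protein-coding genes in 5 classes by span, its median was 0.71 in the shortest class, which held Pfdn5 and Pfdn6, and 0.42, 0.34 and 0.13 in the classes of Pfdn2, Pfdn4 and Pfdn1. The differences were also centred on their own median over the genes in both tables. Those of Pfdn2 and Pfdn4 then became 0.98 and 0.99, just short of 1. Those of Pfdn5, Pfdn6 and Pfdn1 became 0.65, 0.55 and 0.50. Vbp1's difference of 2.95 exceeded that of 95.4% of all genes and ranked 60 of 6063 genes with at least 10 FPKM in both tables. It contains the wild-type ratio that chose the family, so its place is a description alone.

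**Figure D2:**
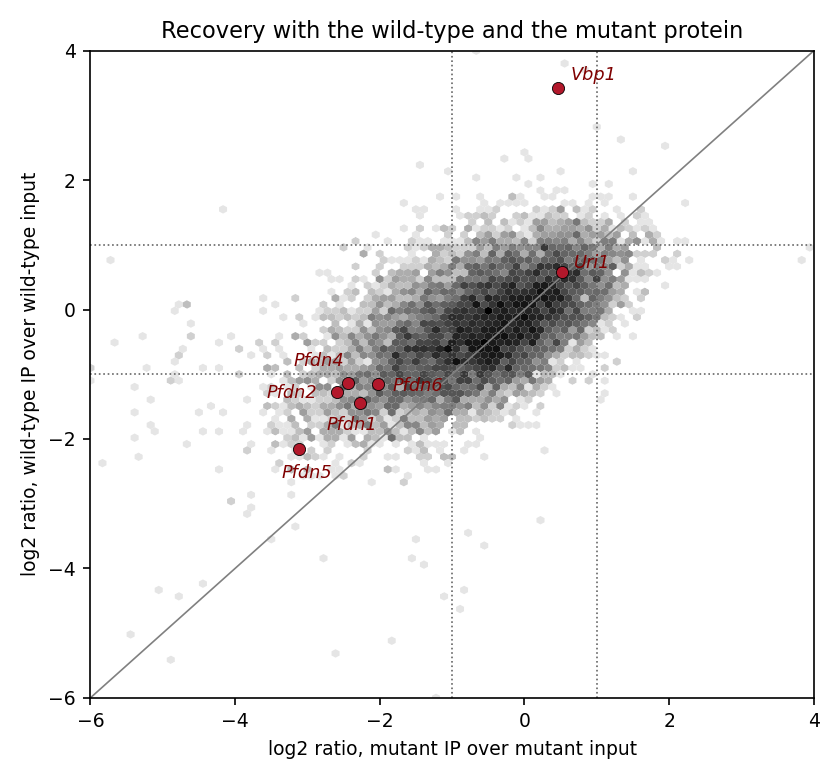
Log2 ratio of IP over input with the wild-type protein (vertical axis) against that with the mutant (horizontal axis), in grey for all genes in both tables (darker hexagons hold more genes, on a log scale; genes beyond the axes are not drawn) and in red for the 7 members. Dotted lines mark 2-fold and the diagonal marks equal ratios; the 5 Pfdn genes sit together at the lower left, Uri1 lies on the diagonal and Vbp1 stands at 3.42 by 0.47, above the main cloud.

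The gap between Vbp1 and the other subunits does not change when a table is rescaled. With the wild-type protein, Vbp1's log2 ratio lay 4.69 above the median of the 5 Pfdn genes and 4.55 above the highest of them. With the mutant protein the gaps were 2.91 and 2.50. Vbp1 thus parted from the rest of the complex in both IPs, by 1.78 more on the log2 scale with the wild-type protein when set against the Pfdn median. The wild-type gaps contain the ratio that chose the family and are a description alone. The 5 Pfdn genes themselves covered a range of 1.02 with the wild-type protein and 1.09 with the mutant.

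The make-up of the family restates the same levels as shares, so it adds no support to the ratios. Of the summed level of the 6 prefoldin subunit genes, Vbp1 made up 67.5% in the wild-type IP against 6.52% in its input, and 33.2% in the mutant IP against 6.12% in its input. It was the least abundant of the 6 in both inputs and the most abundant in both IPs. Pfdn5 made up 6.52% in the wild-type IP against 29.9% in its input, and 10.9% in the mutant IP against 24.2% in its input. Without Vbp1, the other 5 summed to 74.5 FPKM in the wild-type IP and 208 FPKM in its input, and to 51.1 FPKM in the mutant IP and 281 FPKM in its input. FPKM is scaled per length, so these are shares of length-scaled levels and not of reads. Whether they equal shares of transcripts was not tested, since IP reads can gather in peaks.

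**Figure D3:**
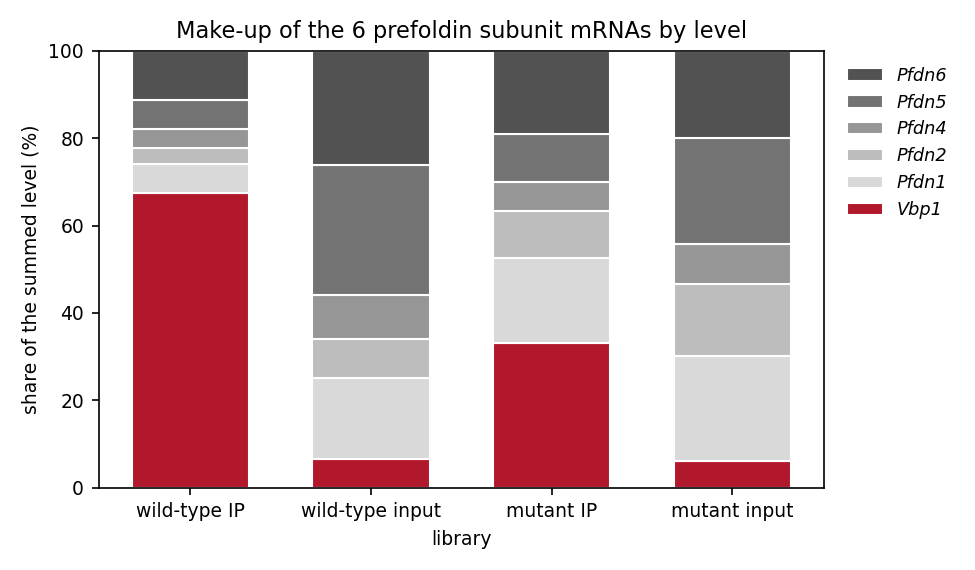
Share of the summed FPKM of the 6 prefoldin subunit genes (vertical axis, percent) held by each gene in the 4 libraries. Vbp1, in red at the base, takes 67.5% of the wild-type IP and 33.2% of the mutant IP, against 6.52% and 6.12% in their inputs.

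Ratios in these tables followed the span of the gene, so each member was also placed within its own class when protein-coding genes were split by span into 5 classes of 2252 genes. Pfdn5 and Pfdn6, with spans of 5.76 and 1.52 kb, fell in the shortest class, whose median log2 ratio was −0.84 with the wild-type protein and −1.55 with the mutant. Pfdn6 lay above 35.5% and 32.8% of that class and Pfdn5 above 6.66% and 9.72%. Pfdn1 spanned 50.8 kb, in the class of 31.4 to 65.3 kb with medians of 0.02 and −0.11, and lay above just 3.02% and 2.26% of it.

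Pfdn4 (22.7 kb) lay above 9.77% of its class with the wild-type protein and 2.75% with the mutant, and Pfdn2 (13.6 kb) above 13.8% and 5.46%. Vbp1 (20.6 kb), in the same class as Pfdn4, lay above 99.5% of it with the wild-type protein and 88.9% with the mutant. Uri1 (63.6 kb), in the same class as Pfdn1, lay above 77.2% and 79.4%. Gene span is not mRNA length, which was not used here.

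The peaks showed where along the genes the recovered RNA was concentrated. A peak was counted in a gene where its summit lay in the span on the gene's strand. Folds of peaks are the authors' own values. Of the 7 members, 2 carried a peak in the wild-type list, Vbp1 and Uri1, where 23.1% of all genes of the wild-type table did. The same 2 carried a peak in the mutant list, where 17.5% of genes did. The 5 Pfdn genes carried 0 peaks in either list. Peaks and gene ratios are not independent measures. Among genes with wild-type IP levels in the range of the 5 Pfdn genes, 208 of 209 enriched genes carried a peak and 1 of 502 lower genes did.

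Vbp1 carried 5 wild-type peaks, a number reached by 4.99% of genes, and 2 mutant peaks. The broadest wild-type peak (X:75533719-75534930) covered 1212 bases at the 3′ end of the gene, with a fold of 17.8 and a summit 1.04 kb before the annotated end. By q-value it ranked 40 of the 11912 wild-type peaks. Both mutant peaks, X:75533733-75533944 with a fold of 3.03 and X:75534451-75534772 with a fold of 3.77, lay inside it. The summit of the first, 19.604 kb from the gene start, was within 2 bases of the wild-type summit at 19.606 kb.

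The other 4 wild-type peaks overlapped no mutant peak, and how common this was over the whole wild-type list was not measured. They lay at X:75516934-75517210 (fold 18.1), X:75521165-75521395 (fold 6.39), X:75523081-75523318 (fold 14.8) and X:75530919-75531212 (fold 14.2), with widths of 231 to 294 bases. Their summits stood 2.75, 7.01, 8.90 and 16.7 kb from the gene start. The peak with a fold of 18.1 was above 98.9% of the wild-type list by fold, whereas the mutant peaks with folds of 3.03 and 3.77 were above 28.3% and 42.4% of theirs. In all, the wild-type peaks covered 2252 bases of Vbp1 and the mutant peaks 534. The peak across the gene start whose sequence is given above had a fold of 8.29 and is not among the 5, since its summit lay before the annotated start. On the strand opposite to Vbp1 the wild-type list held 2 more peaks and the mutant list 0; of the 7 members Vbp1 alone had such peaks, where 1.92% of genes in the wild-type table and 2.21% in the mutant table did. No exon models were used, so whether these peaks lie on exons, introns or untranslated regions was not assigned.

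Uri1 carried 3 wild-type and 3 mutant peaks. In each list 1 of them lay at the 3′ end and overlapped that of the other list: 7:37960138-37961037 in the wild type (fold 2.78) and 7:37960156-37960664 in the mutant (fold 2.55). The other wild-type peaks, at 7:37963466-37963674 (fold 6.60) and 7:37967426-37967654 (fold 7.65), lay 3.56 and 7.51 kb before the annotated end. The other mutant peaks lay at 7:37965412-37965717 (fold 1.77) and, close to the gene start, at 7:38019306-38019513 (fold 5.78). The shared mutant peak and that with a fold of 1.77 were weak, with −log10 q-values of 4.88 and 2.47. At a minimum of 5, Uri1 kept 3 wild-type peaks and 1 mutant peak, and 0 places were shared. How common shared peaks were over the whole lists was not measured.

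**Figure D4:**
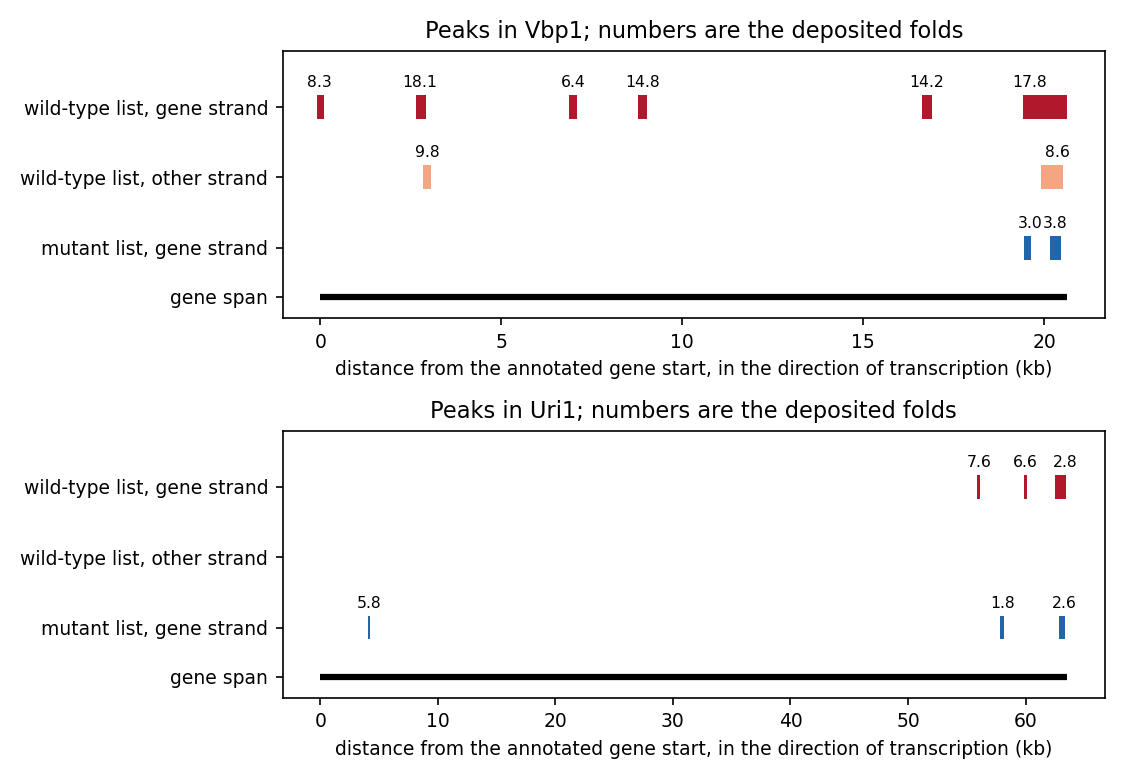
Peaks along Vbp1 (top) and Uri1 (bottom) by distance from the annotated gene start in the direction of transcription (kb); bars span each peak, the number above a bar is the authors' fold, and rows separate the wild-type list on the gene's strand, the wild-type list on the other strand and the mutant list. In Vbp1 the wild-type peaks on the gene's strand are separate sites between the gene start and the 3′ end, with none from 9.02 to 16.6 kb. Both mutant peaks sit within the last one. In Uri1 the lists share the peak at the 3′ end.

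By the pair of log2 ratios, the gene most like Vbp1 among the 5937 named genes with at least 10 FPKM in both tables was Hmga2, a chromatin architectural protein gene and textbook let-7 target, at a distance of 0.30 on the log2 scale (Euclidean, over the 2 ratios). Its ratios were 3.23 with the wild-type protein and 0.71 with the mutant. Like Vbp1 it carried 5 wild-type and 2 mutant peaks, but over a span of 115 kb against 20.6 kb for Vbp1. The distance uses the wild-type ratio that chose the family, and peaks are not independent of ratios, so the likeness is a description alone. The next 4 were much farther away. They were the ubiquitin-conjugating enzyme gene Ube2d3 (1.08), Naf1 (1.10), whose product assembles H/ACA ribonucleoproteins, the transporter-family gene Mfsd1 (1.28) and the transcription factor gene Nfib (1.33). Their ratios lay between 2.14 and 2.70 with the wild-type protein and between −0.37 and 0.86 with the mutant.

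The partners of prefoldin were taken from 5 lists, described here by counts and medians. Over all genes, 7.40% were enriched and 21.5% lower with the wild-type protein, and 5.98% enriched and 36.0% lower with the mutant. The CCT chaperonin receives the clients of prefoldin. Of 8 measured subunit genes, 1 was enriched and 0 lower with the wild-type protein, and 0 were enriched or lower with the mutant. Their median log2 ratios were 0.26 and 0.09, against −1.28 and −2.45 for the 5 Pfdn genes and −0.28 and −0.59 for all genes in both tables. The enriched gene was Cct8, at 206 FPKM in the wild-type IP and 75.7 FPKM in its input, and at 132 FPKM in the mutant IP and 88.7 FPKM in its input. CCT genes were also abundant, with wild-type input levels of 75.7 to 269 FPKM against 14.5 to 66.5 FPKM for the prefoldin subunits. Of the 8, 7 carried a wild-type peak and 5 a mutant peak, where 23.1% and 17.5% of all genes did. The share among genes as abundant as these was not counted, so nothing is read from the peak counts.

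Of 8 measured partners of the URI assembly, 3 were lower with the wild-type protein and 4 with the mutant, with medians of −0.83 and −1.33 and 0 enriched, where 21.5% and 36.0% of all genes were lower. Uxt and Pdrg1, which encode prefoldin-like subunits that join Uri1, had log2 ratios of −0.95 and −1.04 with the wild-type protein and −2.37 and −2.23 with the mutant, where both were lower. Pdrg1 was called lower with the wild-type protein as well. With the mutant these values lie among those of the 5 Pfdn genes (−3.12 to −2.03), and with the wild-type protein just above the highest Pfdn gene (−1.13), in both cases below Uri1. Polr2e, an RNA polymerase subunit found in the assembly, had −1.41 and −1.94, and Pih1d1, an R2TP component, −1.89 and −1.85.

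Of 9 tubulin cofactor and phosducin-like genes, 2 were lower with the wild-type protein and 6 with the mutant, with medians of −0.32 and −1.05 and 0 enriched; the shares lower over all genes were 21.5% and 36.0%. Tbca and Tbcb, whose products carry tubulin subunits after folding, had log2 ratios of −1.08 and −1.04 with the wild-type protein and −2.60 and −1.75 with the mutant. Tbcc, also a tubulin cofactor, had −0.60 and −1.24 and was lower with the mutant. Of 15 actin, actin-related and tubulin genes, the clients, 5 were lower with the wild-type protein and 13 with the mutant, with medians of −0.70 and −1.64, beside the same 21.5% and 36.0% of all genes. Tubg1 (gamma-tubulin) had −1.80 and −2.33, Tubb6 −1.51 and −1.25, Tuba1a −0.18 and −1.99, and Tubb3, which was below 1 FPKM in every library, −1.43 and −2.76. Alpha- and beta-tubulin genes resemble each other closely enough to share reads, which leaves their single values uncertain.

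Vbp1 is named for its binding to the von Hippel-Lindau protein, the substrate receptor of a ubiquitin ligase. Of 7 measured genes of that axis, 1 was enriched and 1 lower with the wild-type protein, and 4 were lower with the mutant, with medians of 0.29 and −1.31. The shares over all genes were 7.40% enriched and 21.5% lower for the wild type, against 36.0% lower for the mutant, and nothing is read from such small counts near them. Cul2, the scaffold of the ligase, was the enriched one, at 44.2 FPKM in the wild-type IP and 19.5 FPKM in its input, and at 34.1 FPKM in the mutant IP and 17.1 FPKM in its input. Its ratio was almost the same in the constructs, at 1.18 and 0.99. Elob, an adaptor subunit, had −2.51 and −3.59, Eloc, its partner, 0.29 and −1.77, and Rbx1, the RING subunit, −0.63 and −1.58. The highest wild-type ratio of the 7, that of Cul2, compares with 3.42 for Vbp1.

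**Figure D5:**
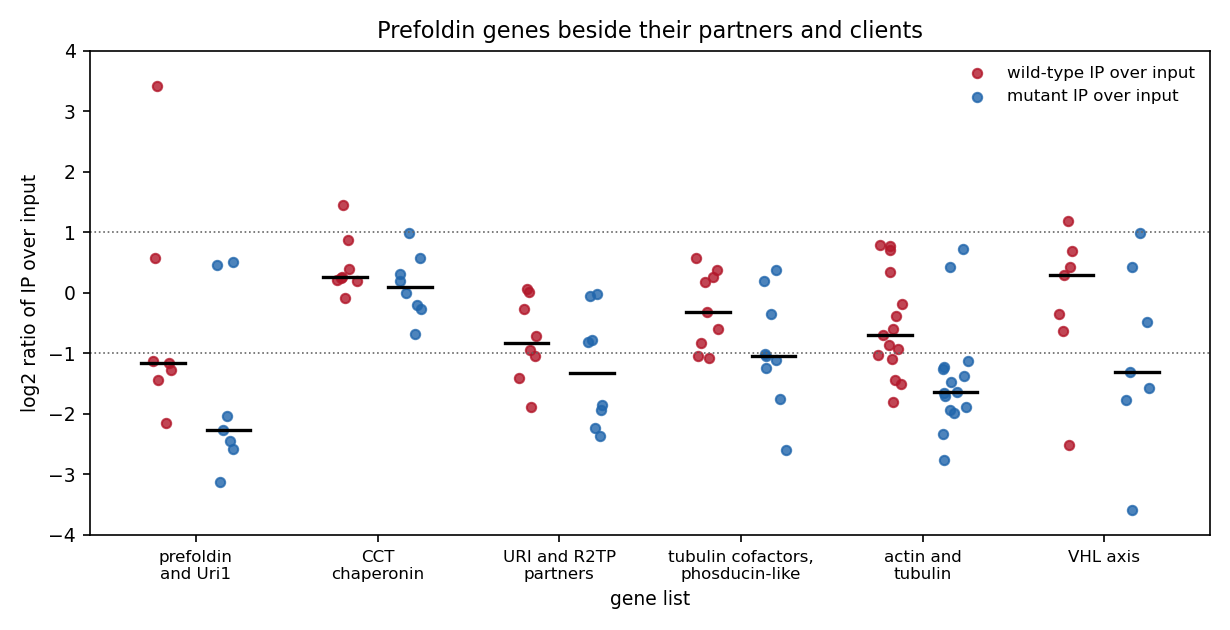
Log2 ratio of IP over input for each gene of the prefoldin family and of 5 lists of partners and clients, in red for the wild-type protein and in blue for the mutant; black bars are list medians, dotted lines mark 2-fold, and horizontal scatter within a column carries no value. Vbp1 at 3.42 is the highest red point, CCT genes lie between −0.08 and 1.45 with the wild-type protein and between −0.68 and 0.99 with the mutant, and the median of each list is lower with the mutant.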

How the data were processed

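RNA recovered with an anti-Flag antibody and input RNA were sequenced from stranded mRNA libraries, per the labels' protocols. The submitters' processing notes list bedtools, HOMER 4.11.1, MACS2 2.2.7.1 and HISAT2 2.1.0 beside the builds GRCm38 and mm10, without roles. The 2 deposited gene tables hold 1 level per gene and library; the headers name no unit, and the levels were read as FPKM, since at like levels the authors' p-value was smaller for longer genes (evidence per level against length, Spearman's rho 0.937 across 171 processed pseudogenes of the wild-type table and 0.954 across 241 of the mutant table). The depth of the libraries is unknown from these values. The authors' log2 ratio equals log2 of (IP + 0.01) over (input + 0.01) to within 1.57e-09 and was recomputed that way. Which test gave the authors' p-value and q-value is not stated in the labels. The deposited peak lists give a fold, a −log10 p-value and q-value and a score per peak, with 1 list per IP and strands called apart; the score was not used.

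Symbols came from the mutant table by gene identifier. Members and lists were chosen with earlier results of these data known. Named genes were the 7 members, up to 3 called genes per list and table with the largest absolute ratio, the 5 genes nearest to Vbp1, and Lin28b. The code for ratios, calls and peak placement was checked on simulated data with q-values set in advance. That check says nothing about how calls behave with 1 library per group. The alternatives tried were other pseudocounts, centring, fold and level thresholds, and peak and overlap rules; the span classes and the subunit shares were added after seeing the data. Python 3.11.15, pandas 2.3.3 and scipy 1.17.1 were used. For sequence, 6 of the 7 members matched the RefSeq promoter table, and other peak sequences were not analysed here.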

Additional observations from a re-analysis of the deposited data

Results flagged for a closer look

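The wild-type list held 2 peaks on the strand opposite to Vbp1, a signal outside the counts of the report, while the mutant list held 0. They lay at X:75517125-75517361 with a fold of 9.79 and at X:75534224-75534815 with a fold of 8.64, and each overlapped a wild-type peak on the gene's strand. Their −log10 q-values were 13.4 and 10.7, against 264 and 588 for the peaks opposite them. An opposite-strand peak was present in 1.92% of genes of the wild-type table and in 2.21% of genes of the mutant table.

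Eloc, the elongin subunit gene of the VHL list, had log2 ratios of opposite sign, 0.29 with the wild-type protein and −1.77 with the mutant, a difference of 2.06. Eloc is given by the rule for named genes and was not alone. Of the 47 genes of the 5 lists, 12 had a ratio above 0 with the wild-type protein and below 0 with the mutant, and 1 the opposite. Among these 13, the genes called lower with the mutant were Eloc, Tuba4a, Tubb4b, Txndc9 and Vhl, the last 4 named after their values were seen. Tuba4a, an alpha-tubulin gene, had log2 ratios of 0.77 and −1.93, a larger difference of 2.70, and Vhl had 0.43 and −1.31, a difference of 1.74. These differences rest on 1 library per group and were not tested. The share of all genes with opposite signs was not counted. Over all genes in both tables, 63.2% had the higher ratio with the wild-type protein, so nothing is read from the split of 12 to 1.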

How the results depend on the processing

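Over 115 combinations of a result and an alternative, 91 kept their direction and their side of the threshold or stayed within 1.5 times. A pseudocount of 0.1 or 1 changed no call of a member. Centring each table on its median brought the wild-type ratios of Pfdn2, Pfdn4 and Pfdn6 to −0.98, −0.84 and −0.86, short of 2-fold, so that 2 members were lower in place of 5. It took the mutant ratios of Vbp1 and Uri1 to 1.07 and 1.12, so that 2 members were enriched in place of 0. The differences between constructs were centred apart, on their own median over the genes in both tables. Those of Pfdn2, Pfdn4 and Uri1 became 0.98, 0.99 and −0.26, the last with its sign turned. By construction, each centring shifts every gene by the same amount. Over the whole wild-type table, enriched genes numbered 1092, against 509 with a pseudocount of 1, 1804 after centring, 2194 at 1.5-fold and 726 above a level of 1; lower genes numbered 3169, against 1501 with a pseudocount of 1 and 5002 at 1.5-fold. Over the mutant table, enriched genes numbered 863, against 440, 2298 and 1720 with a pseudocount of 1, after centring and at 1.5-fold, and lower genes 5196, against 3082 with a pseudocount of 1 and 3294 after centring. At a −log10 q of at least 5 the members kept 3 of 5 mutant peaks; both lost ones were of Uri1, 1 of them its peak shared with the wild-type list. With a reciprocal overlap of 50%, 1 wild-type peak was shared in place of 2, and 1 mutant peak in place of 3. No paired analysis was possible because each group held 1 library. Depth is unknown, so it sets no limit that can be stated.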
